A study of Sparus aurata with 30 samples.

Results

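The genes apoc2, rbp4 and itih2 encode proteins that circulate in blood plasma, among them carriers of lipid and of retinol, and they were taken by name as 3 of the 25722 genes counted. Their transcript levels were followed in liver, intestine and head kidney of Sparus aurata, the gilthead sea bream, a fish farmed in the Mediterranean. One set of fish ate a diet with SDY, brewer's spent dry yeast recovered from beer making, at 30% of the feed, and the other set ate the control diet. The yeast took the place of fish meal (10%) and of proteins from plants (31.4%). Poly(A) RNA was sequenced from tissue of specimens picked at random, with 5 libraries per tissue and diet. The labels used here give no age, sex or tank, so p-values reflect only how these specimens varied.

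The groups were liver SDY, liver control, intestine SDY and intestine control with 5 libraries each, head kidney SDY with 5 and head kidney control with 3. These are 28 of the 30 libraries. Head kidney control replicate 1 held 926 counts and was left out. Head kidney control replicate 3 was left out as well, and its levels of the 3 genes, 1760 CPM (counts scaled to a common library size, here its plain total) for apoc2, 603 CPM for rbp4 and 1870 CPM for itih2, lay far above those of every other head kidney library. For apoc2, rbp4 and itih2, edgeR contrasts that rest on head kidney are also given with both libraries kept, where that fit returned a value. Ranges, shares and correlations over head kidneys are given only for the libraries used. Per library total, the highest intestines had 1067 CPM of apoc2 and 266 CPM of rbp4, both below replicate 3.

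Apolipoprotein C-II, the product of apoc2, rides on lipoproteins and is the cofactor that lipoprotein lipase needs to release fatty acids from their triglyceride. Retinol-binding protein 4, from rbp4, carries retinol from liver stores to tissues, where in mammals the receptor STRA6 takes the retinol up. Inter-alpha-trypsin inhibitor heavy chain 2, from itih2, is a secreted protein that becomes linked to hyaluronan, a sugar chain of the extracellular matrix, and it carries neither lipid nor retinol. In mammals the liver makes most of all 3 proteins, and the intestine also makes apolipoproteins for the lipoproteins that leave it after a meal.

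All 3 genes lie on the plus strand of assembly fSpaAur1.1. The annotation places apoc2 at chr17:26201383-26202613, rbp4 at chr20:15262931-15265721 and itih2 at chr14:21338859-21351039, and the spans of 1231, 2791 and 12181 bases cover exons and introns together. These spans set how the counts can be read, because reads were counted over whole mRNA spans, without a strand option, and a read falling on several genes counted once for every one. No other gene overlaps apoc2. The whole span of rbp4 lies inside pde6c, a phosphodiesterase gene of cone photoreceptors on the minus strand. The last 94 bases of itih2, 0.772% of its span, are shared with kin, a gene on the minus strand.

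**Figure D1:**
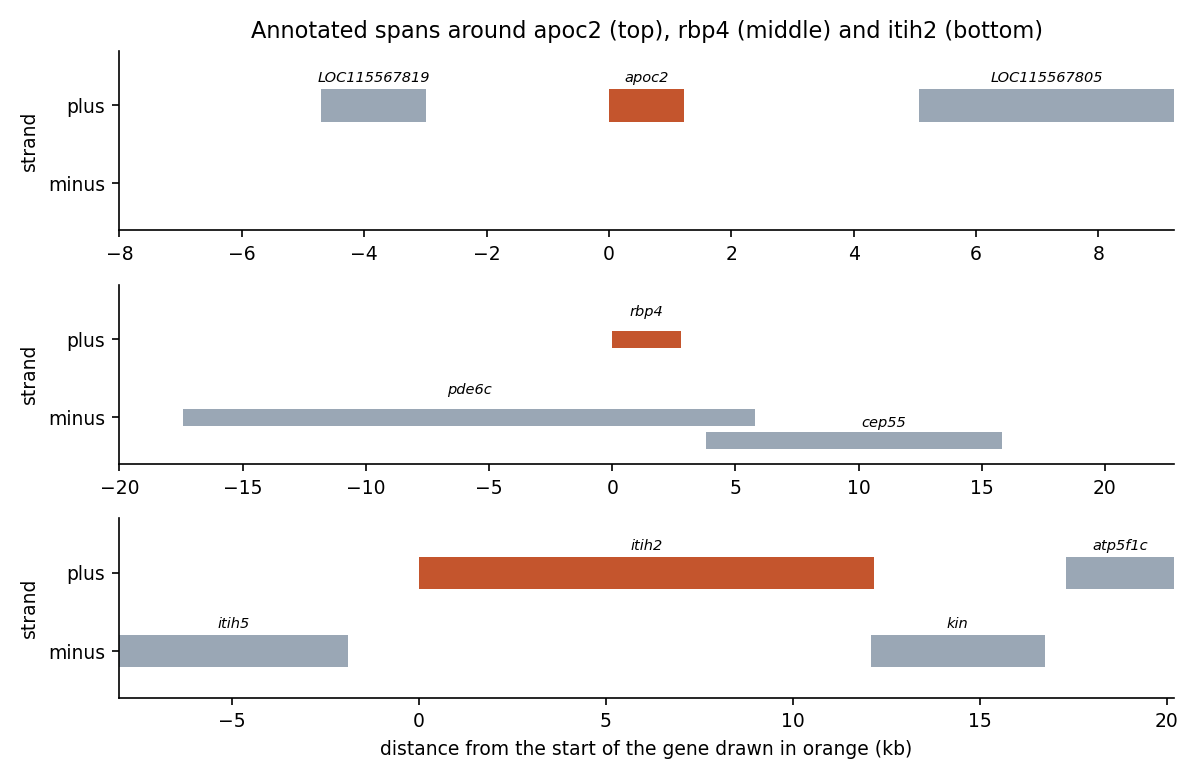
Annotated spans around apoc2, rbp4 and itih2 (orange) and their neighbours (grey), drawn as distance from the start of each gene in kb on the horizontal axis and by strand on the vertical axis, with spans that run past the edge drawn up to it. The bar of rbp4 sits wholly within that of pde6c on the other strand, that of itih2 meets kin at its end, and that of apoc2 stands alone.

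The overlaps weighed differently on the genes. Counts of rbp4 made up 99.6% of those of pde6c over the livers (99.3% to 99.8% in single libraries) and 94.6% over the intestines (84.2% to 99.4%), but 48.5% over the head kidneys (21.5% to 69.4%). The reads of pde6c outside rbp4 numbered 50 to 205 per liver, 20 to 647 per intestine and 345 to 605 per head kidney. Part of pde6c outside rbp4 is shared with cep55, also on the minus strand, so these reads can include those of cep55. That gene averaged 9.52 CPM in liver, 12.6 CPM in intestine and 34.9 CPM in head kidney, and its part in these reads was not tested. Which strand the reads within rbp4 came from could not be told from these counts, so its level in head kidney is the least certain of its values. In liver, itih2 had 24406 to 84357 counts and kin 605 to 2201. In intestine, itih2 had 55 to 141 counts and kin 199 to 491, and in head kidney 92 to 151 and 250 to 598, and the share of itih2 reads that fell on the shared bases was not tested.

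The 28 libraries held 9276705 to 20580440 counts, with the lowest total in liver SDY replicate 3. Levels are given as CPM after TMM scaling, which corrects a library's total for the share taken by a few abundant genes. The scaling factors were 0.419 to 0.636 in liver, 1.07 to 1.46 in intestine and 1.43 to 1.68 in head kidney. All 3 genes passed the filter on low counts in every comparison. Of 17 listed hepatocyte markers 8 were found by symbol, and their summed level was 35800 to 79100 CPM in livers, 6.11 to 44.3 CPM in intestines and 24.2 to 43.9 CPM in head kidneys. The 5 enterocyte markers found of 17 summed to 121 to 434 CPM in livers, 2490 to 14400 CPM in intestines and 0.527 to 2.33 CPM in head kidneys. Most of that sum in liver was mttp, at 101.8 to 412.5 CPM in livers and 100.7 to 592.6 CPM in intestines. The livers also carried the 3 exocrine pancreas markers found of 18, at a summed 6300 to 35100 CPM, against 1.16 to 819 CPM in intestines and 0.181 to 8.83 CPM in head kidneys, and nearly all of that sum in liver was cpb1 alone (6300 to 35000 CPM). In whole tissue, fewer cells of a type and less RNA per cell cannot be told apart.

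For apoc2, the lipoprotein lipase cofactor, liver stood highest, intestine lower and head kidney near zero. In liver it had 4614, 3734, 3293, 4424 and 3952 CPM under SDY, against 5857, 3041, 4090, 7406 and 4553 CPM under control. In intestine it had 182, 779, 571, 51.0 and 844 CPM under SDY, against 232, 345, 481, 36.2 and 207 CPM under control. In head kidney it had 1.24, 0.113, 0.103, 0.359 and 0.220 CPM under SDY, against 0.747, 0.717 and 0.0453 CPM under control. All 10 livers lay above every intestine, and all 10 intestines lay above every head kidney, where the gene had between 1 and 33 counts per library. The intestines spread widely, with 1 SDY and 1 control library far below the others.

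Tissue means of apoc2 were 4496 ± 1289 CPM in liver (SD, n = 10), 373 ± 286.8 CPM in intestine (n = 10) and 0.443 ± 0.421 CPM in head kidney (n = 8). Liver exceeded intestine by 3.68 on the log2 scale (SE 0.51, 95% interval 2.63 to 4.73, edgeR quasi-likelihood adjusted p = 4.11e-07). Of all 20296 genes tested, 78.8% passed the adjusted threshold of 0.05 in this comparison and 35.4% passed it as higher and 43.4% as lower in liver, so that a call alone sets no gene apart. In 16.9% of the genes tested every liver lay above every intestine, as it did for apoc2, rbp4 and itih2. Intestine exceeded head kidney by 9.61 (SE 0.83, edgeR adjusted p = 1.40e-10), a comparison in which 73.6% of genes passed, 38.5% as higher and 35.0% as lower in intestine. With all 30 libraries kept, that difference was 4.99 (edgeR adjusted p = 0.000211).

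For rbp4, the retinol carrier, the order of tissues was the same and the intestines were less spread. In liver it had 3293, 2209, 1590, 2475 and 2540 CPM under SDY, against 2640, 1926, 2588, 2369 and 2076 CPM under control. In intestine it had 77.4, 119, 116, 107 and 122 CPM under SDY, against 227, 166, 152, 114 and 146 CPM under control. In head kidney it had 16.4, 6.21, 12.2, 11.1 and 50.3 CPM under SDY, against 9.34, 16.1 and 19.2 CPM under control. All 10 livers lay above every intestine and all 10 intestines above every head kidney, with SDY replicate 5 the highest head kidney. That library also had the highest hepatocyte marker sum of the head kidneys, 43.9 CPM, although SDY replicate 2, with the lowest rbp4, had a sum of 43.8 CPM. Among these markers, fgb, fgg, f2, plg and pah reached at most 3.08, 2.63, 3.34, 0.939 and 0.294 CPM in any head kidney used. Most of the sum there thus came from the other markers.

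Tissue means of rbp4 were 2371 ± 463 CPM in liver (SD, n = 10), 134.6 ± 40.95 CPM in intestine (n = 10) and 17.6 ± 13.9 CPM in head kidney (n = 8). Liver exceeded intestine by 4.19 on the log2 scale (SE 0.29, 95% interval 3.59 to 4.80, edgeR adjusted p = 1.48e-12). Intestine exceeded head kidney by 2.97 (SE 0.32, edgeR adjusted p = 6.69e-09), or by 1.45 with all 30 libraries kept (edgeR adjusted p = 0.0140). Counts shared with pde6c enter both sides of each comparison, and their part in the head kidney level was not tested.

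For itih2, the hyaluronan-linked plasma protein, intestine and head kidney were both at a few CPM and liver stood far above them. In liver it had 4946, 5364, 4917, 7099 and 5839 CPM under SDY, against 7065, 4258, 4625, 8949 and 6204 CPM under control. In intestine it had 2.77, 3.02, 3.65, 2.96 and 4.05 CPM under SDY, against 4.93, 6.71, 3.19, 3.69 and 3.25 CPM under control. In head kidney it had 5.67, 4.55, 3.61, 4.54 and 4.26 CPM under SDY, against 4.30, 5.65 and 4.90 CPM under control. Every liver lay above every other library, while the intestine and head kidney values overlapped. Intestine control replicate 2, the highest intestine for itih2, also had the highest hepatocyte marker sum of the intestines, 44.3 CPM. Intestine SDY replicate 4 and control replicate 4 had sums of 41.2 and 38.6 CPM, although their itih2 was 2.96 and 3.69 CPM. The gene before apoc2, LOC115567819, at 37300 to 79700 CPM in livers, was highest among intestines in control replicate 2, at 23.1 CPM. It was at 1.07 CPM in SDY replicate 4 and 0.832 CPM in control replicate 4. The exocrine pancreas marker cpb1, at 6300 to 35000 CPM in livers, was also highest among intestines in control replicate 2, at 815 CPM. Its level was 106 CPM in SDY replicate 4 and 0.499 CPM in control replicate 4. The part of hepatocyte RNA in the itih2 value of control replicate 2 was not tested.

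Tissue means of itih2 were 5927 ± 1440 CPM in liver (SD, n = 10), 3.82 ± 1.2 CPM in intestine (n = 10) and 4.68 ± 0.705 CPM in head kidney (n = 8). Liver exceeded intestine by 10.64 on the log2 scale (SE 0.25, 95% interval 10.12 to 11.15, edgeR adjusted p = 2.22e-21). Intestine minus head kidney was -0.32 (SE 0.18, 95% interval -0.69 to 0.06), with an edgeR adjusted p of 0.118. That difference passed the threshold at -0.61 on plain library totals (edgeR adjusted p = 0.00235), at -3.34 with all 30 libraries kept (edgeR adjusted p = 0.000212) and at -0.42 without intestine control replicate 2 (edgeR adjusted p = 0.0279).

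Against head kidney, liver was higher for all 3 genes, where 75.0% of genes tested passed the threshold and 37.5% as higher in liver. The differences were 13.28 for apoc2 (SE 0.91, edgeR adjusted p = 9.97e-13), 7.16 for rbp4 (SE 0.41, edgeR adjusted p = 2.55e-14) and 10.32 for itih2 (SE 0.31, edgeR adjusted p = 1.80e-19). With all 30 libraries kept they were 8.66, 5.65 and 7.29. The share of genes with every liver above every head kidney was 23.5%, and that with every intestine above every head kidney, as for apoc2 and rbp4, was 22.5%.

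**Figure D2:**
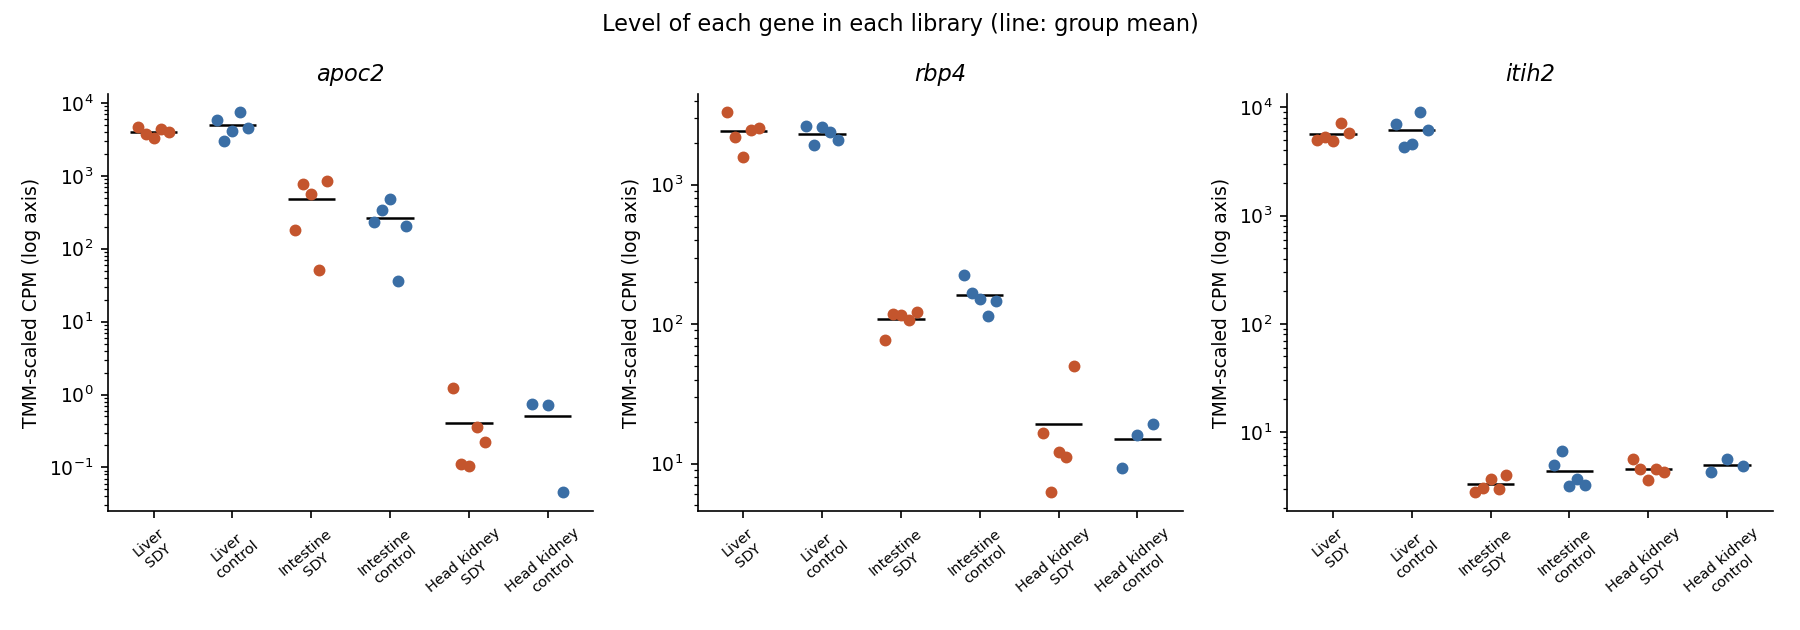
Level of apoc2, rbp4 and itih2 in each of the 28 libraries, in TMM-scaled CPM on log axes that differ between panels, by tissue and diet (SDY orange, control blue), where a line marks a group mean. Livers lie above all other libraries in each panel, intestines lie between for apoc2 and rbp4, and intestines and head kidneys overlap for itih2.

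The size of these tissue differences depends on the scaling, because the factors differ by tissue. On plain library totals, liver exceeded intestine by 2.49 for apoc2, 2.99 for rbp4 and 9.40 for itih2. The median of all genes was then -1.38, against -0.176 with TMM, and 14.3% of the calls were higher in liver, against 44.9%. For liver against head kidney the median was -1.50, against -0.03 with TMM, and 18.4% of the calls were higher, against 50%. For intestine against head kidney the median was -0.24, against 0.04 with TMM, and 42.4% of the calls were higher, against 52.4%. The direction for all 3 genes in liver against either tissue was the same under both scalings.

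The SDY diet moved none of the 3 genes past the threshold in any tissue, and SDY and control libraries overlapped in all 9 combinations of gene and tissue. The share of genes tested whose diets did not overlap was 1.36% in liver, 0.840% in intestine and 7.13% in head kidney. Head kidney had 5 SDY and 3 control libraries, against 5 and 5 in liver and in intestine. Smaller groups separate more readily, so its share cannot be set beside the others. In liver, no gene among 15010 tested passed with edgeR, a share of 0.0%, with 1613 at an unadjusted p under 0.05 and 103 called by DESeq2. In intestine, no gene among 18221 passed, again 0.0%, with 1185 at an unadjusted p under 0.05 and 55 called by DESeq2. In head kidney, 1 of 17151 genes passed, 0.00583%, with 2020 at an unadjusted p under 0.05 and 248 called by DESeq2. The gene that passed with edgeR was none of the 3.

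In liver, apoc2 averaged 4003 ± 531.4 CPM under SDY and 4989 ± 1687 CPM under control (SD, n = 5 each), a log2 difference of -0.32 (95% interval -0.84 to 0.20, edgeR adjusted p = 0.661). The control livers spanned the wider range, with the 5 SDY livers inside it. For rbp4 the liver means were 2422 ± 615 CPM under SDY and 2320 ± 312.6 CPM under control (0.05, 95% interval -0.38 to 0.49, edgeR adjusted p = 0.944). For itih2 they were 5633 ± 901.3 CPM under SDY and 6220 ± 1907 CPM under control (-0.15, 95% interval -0.65 to 0.35, edgeR adjusted p = 0.850). Each interval holds 0.

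In intestine, apoc2 averaged 485.7 ± 354.7 CPM under SDY and 260.3 ± 165.7 CPM under control (SD, n = 5 each), a log2 difference of 0.89 with an interval of -0.79 to 2.56 (edgeR adjusted p = 0.911). There 3 of 5 SDY libraries lay above every control and 2 lay below the control median. For rbp4 the means were 108.2 ± 18.1 CPM under SDY and 160.9 ± 41.3 CPM under control, a log2 difference of -0.58 (SE 0.20, 95% interval -1.02 to -0.14). All 5 SDY intestines lay below the control median and 2 of 5 below every control. Its unadjusted p of 0.0144 became 0.726 after edgeR's adjustment over all genes, and 6.50% of the genes tested had an unadjusted p under 0.05. For itih2 the means were 3.29 ± 0.536 CPM under SDY and 4.36 ± 1.49 CPM under control, a log2 difference of -0.41 (95% interval -0.95 to 0.12, edgeR adjusted p = 0.824).

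In head kidney, diet differences had wide intervals for apoc2 and rbp4 and a narrower one for itih2. The log2 difference of apoc2 was -0.32 (95% interval -2.53 to 1.90, edgeR adjusted p = 0.913) and rests on 1 to 33 counts per library. That of rbp4 was 0.36 (95% interval -1.05 to 1.76, edgeR adjusted p = 0.830), and without SDY replicate 5 it was -0.36. That of itih2 was -0.12 (95% interval -0.51 to 0.27, edgeR adjusted p = 0.789). With both omitted head kidney libraries kept, the values were -2.77 for rbp4 and -6.26 for itih2 (edgeR adjusted p = 0.432 and 0.391), and apoc2 was not tested in that fit.

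**Figure D3:**
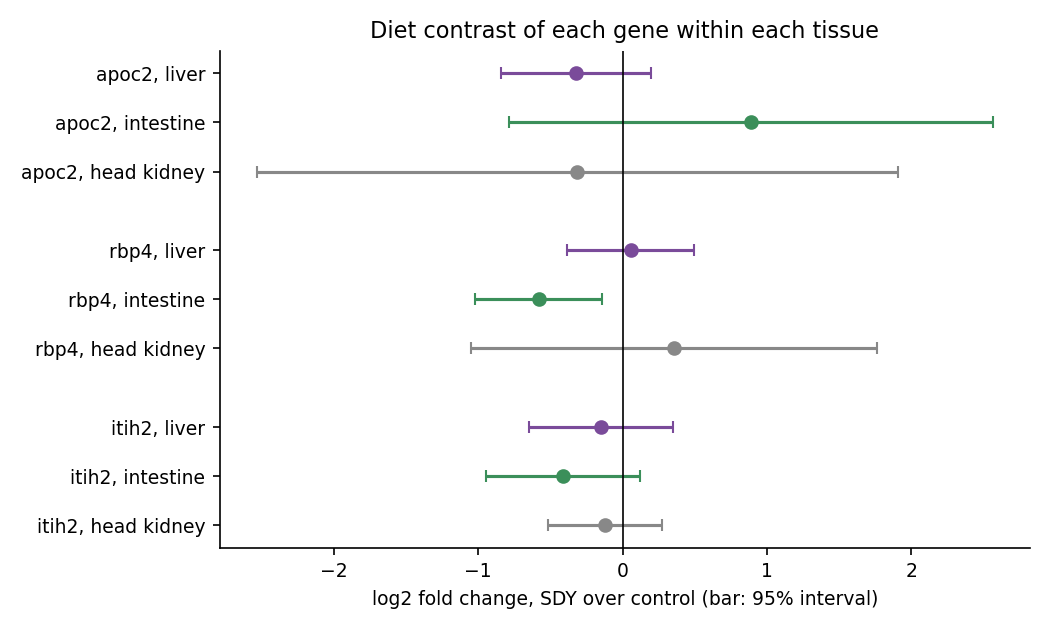
Log2 fold change of SDY over control for apoc2, rbp4 and itih2 in liver, intestine and head kidney, where points are edgeR estimates and bars are 95% intervals. Only the interval of rbp4 in intestine, -1.02 to -0.14, leaves out 0, and its adjusted p was 0.726.

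The diet effects in liver and intestine were set against each other by an interaction test over the 28 libraries, and no difference passed for the 3 genes. Liver minus intestine was -1.22 for apoc2 (95% interval -3.11 to 0.68, edgeR adjusted p = 0.965), 0.64 for rbp4 (-0.42 to 1.7, edgeR adjusted p = 0.974) and 0.26 for itih2 (-0.43 to 0.95, edgeR adjusted p = 1.0). Of 20296 genes, 0.00985% passed that test. Liver minus head kidney was -0.01 for apoc2, -0.31 for rbp4 and -0.02 for itih2 (edgeR adjusted p = 1.0 for each), where 0.00985% of genes passed. The 95% intervals were -4.28 to 4.26, -1.46 to 0.84 and -0.77 to 0.73, so the value near 0 for apoc2 does not show equal diet effects. Head kidney minus intestine was -1.21, 0.95 and 0.28 in the same order (edgeR adjusted p = 1.0, 0.841 and 1.0), where 0.00493% passed. Its 95% intervals were -3.47 to 1.06, -0.21 to 2.11 and -0.47 to 1.03. With all 30 libraries kept, liver minus head kidney was 9.24 for apoc2, 2.73 for rbp4 and 6.04 for itih2 (edgeR adjusted p = 0.0212, 0.209 and 0.0221), and head kidney minus intestine was -10.45, -2.09 and -5.78 (edgeR adjusted p = 0.0327, 0.443 and 0.0459). The contrasts share their control and SDY libraries, so they are not independent of one another.

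The genes around apoc2, rbp4 and itih2 in their pathways were taken from lists chosen by function, and their counts are under TMM scaling and were not repeated on plain library totals. Of 15 partners listed, 5 were found by symbol, namely lpl, stra6, rbp2, mttp and hnf4a, and the others were not analysed here. Lipoprotein lipase, lpl, the enzyme that apolipoprotein C-II activates, had 756 ± 256 CPM in liver and 4.91 ± 1.15 CPM in intestine (SD, n = 10 each), a log2 difference of 7.31 (SE 0.54, edgeR adjusted p = 3.85e-12). The retinol receptor stra6 ran the other way to rbp4, with 2 counts over all 10 livers and 47.0 ± 19.6 CPM in intestine. Cellular retinol-binding protein rbp2, which holds absorbed retinol inside enterocytes in mammals, had 53.8 ± 55.4 CPM in liver and 684 ± 439 CPM in intestine (-3.91, SE 0.65, edgeR adjusted p = 6.25e-06).

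The other partners were present in both liver and intestine, with no difference past the threshold under TMM scaling. The lipoprotein assembly gene mttp had 258 ± 117 CPM in liver and 249 ± 139 CPM in intestine (0.08, SE 0.26, edgeR adjusted p = 0.793). The transcription factor hnf4a, active in hepatocytes and enterocytes, had 209 ± 56.5 CPM in liver and 199 ± 34.7 CPM in intestine (0.08, SE 0.16, edgeR adjusted p = 0.648). On plain library totals hnf4a was at 50.7 to 177 CPM in livers and 178 to 314 CPM in intestines, which did not overlap, and mttp was at 58.7 to 235 CPM in livers and 118 to 749 CPM in intestines. Under TMM scaling both had means near 0 in head kidney, at 0.0135 CPM for mttp and 0.119 CPM for hnf4a.

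Of 26 apolipoproteins listed, 2 were found by symbol, apoc2 and apof, and both were higher in liver than in intestine. A protein of high-density lipoproteins, apof, had 248 ± 87.1 CPM in liver and 3.51 ± 0.934 CPM in intestine. Of 20 genes tested for lipoprotein assembly, lipolysis and transfer, 11 were higher in liver and 2 lower, against 35.4% higher and 43.4% lower over all genes tested, with a median log2 difference of 1.17, against -0.176 over all genes. The higher ones included cetp, which moves cholesteryl esters between lipoproteins (360 ± 146 CPM in liver, 0.0882 ± 0.170 CPM in intestine), and hepatic lipase lipc (275 ± 88.6 CPM in liver, 0.0636 ± 0.0575 CPM in intestine). The lower ones included mogat2, which rebuilds triglyceride in enterocytes (0.894 ± 0.426 CPM in liver, 163 ± 72.5 CPM in intestine).

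Of 13 lipoprotein receptors tested, 5 were higher in liver and 5 lower, near the shares over all genes tested (35.4% higher and 43.4% lower), with a median of -0.31. The low-density lipoprotein receptor ldlr was at 189 ± 201 CPM in liver and 7.58 ± 15 CPM in intestine. The fatty acid receptor cd36 was at 1.05 ± 1.78 CPM in liver and 1835 ± 1203 CPM in intestine, and scarb1, a receptor for high-density lipoprotein, at 24.2 ± 9.41 CPM in liver and 717 ± 329 CPM in intestine. The spread of ldlr exceeded its mean in both tissues.

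Of 19 genes in the retinol list, 9 were found and 5 passed the filter on low counts, and rbp4 was the 1 called higher in liver while the other 4 were called lower, with a median of -3.91, against 43.4% lower over all genes tested. Besides stra6 and rbp2, the lower ones included crabp1, an intracellular retinoic acid carrier with 0 counts over all livers and 143 over all intestines. Of 8 genes tested for retinoic acid synthesis, breakdown and reception, 4 were higher in liver and 3 lower, with 78.8% of all genes tested called in either direction. The retinol dehydrogenase rdh8 had 871 ± 275 CPM in liver and 61.0 ± 34.7 CPM in intestine, and rdh12 93.3 ± 72.9 CPM in liver and 7.52 ± 6.30 CPM in intestine. In contrast, rdh10, which makes retinal from retinol, had 1.05 ± 0.412 CPM in liver and 16.1 ± 2.45 CPM in intestine, and the receptor rarb 0.783 ± 1.0 CPM in liver and 4.07 ± 6.21 CPM in intestine.

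Of 12 genes tested of the inter-alpha-trypsin inhibitor family and the hyaluronan pathway, 3 were higher in liver, itih2 and the hyaluronan receptor lyve1 among them, and 8 were lower, with a median of -1.71. Over all genes tested 35.4% were higher and 43.4% lower. The receptor lyve1 had 9.78 ± 1.60 CPM in liver and 1.18 ± 0.704 CPM in intestine. The hyaluronan synthase has1 had 1 count over all livers and 31.3 ± 26 CPM in intestine. The family member itih5, which lies 1894 bases before itih2 on the other strand, went the other way to itih2, with 0.564 ± 0.297 CPM in liver and 14.5 ± 6.36 CPM in intestine (-4.59, SE 0.42, edgeR adjusted p = 3.03e-10).

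All 15 other plasma proteins of liver that were tested were higher in liver than in intestine, against 35.4% of all genes tested, with a median log2 difference of 13.7. Plasminogen, plg, had 3963 ± 1004 CPM in liver and 0.226 ± 0.396 CPM in intestine, and complement c8b 1227 ± 147 CPM in liver and 0.0884 ± 0.204 CPM in intestine. Their differences, 14.47 for plg and 14.32 for c8b, were wider than the 10.64 of itih2, the 4.19 of rbp4 and the 3.68 of apoc2. These were the 2 largest of the list and rest on 50 and 19 counts over all intestines. Not all of the list exceeded itih2, as igf1 had a difference of 9.65. Of 15 liver transcription factors tested, 9 were higher in liver and 2 lower, with a median of 0.57, where 35.4% of all genes tested were higher and 43.4% lower. The lower ones were cebpd (33.9 ± 12.7 CPM in liver, 56.3 ± 22.9 CPM in intestine) and pparg (41.0 ± 12.7 CPM in liver, 62.1 ± 39.7 CPM in intestine). Among the higher ones, onecut2 had 12.6 ± 3.22 CPM in liver and 0.0166 ± 0.0215 CPM in intestine, and onecut1 19.4 ± 5.21 CPM in liver and 0.418 ± 0.502 CPM in intestine.

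**Figure D4:**
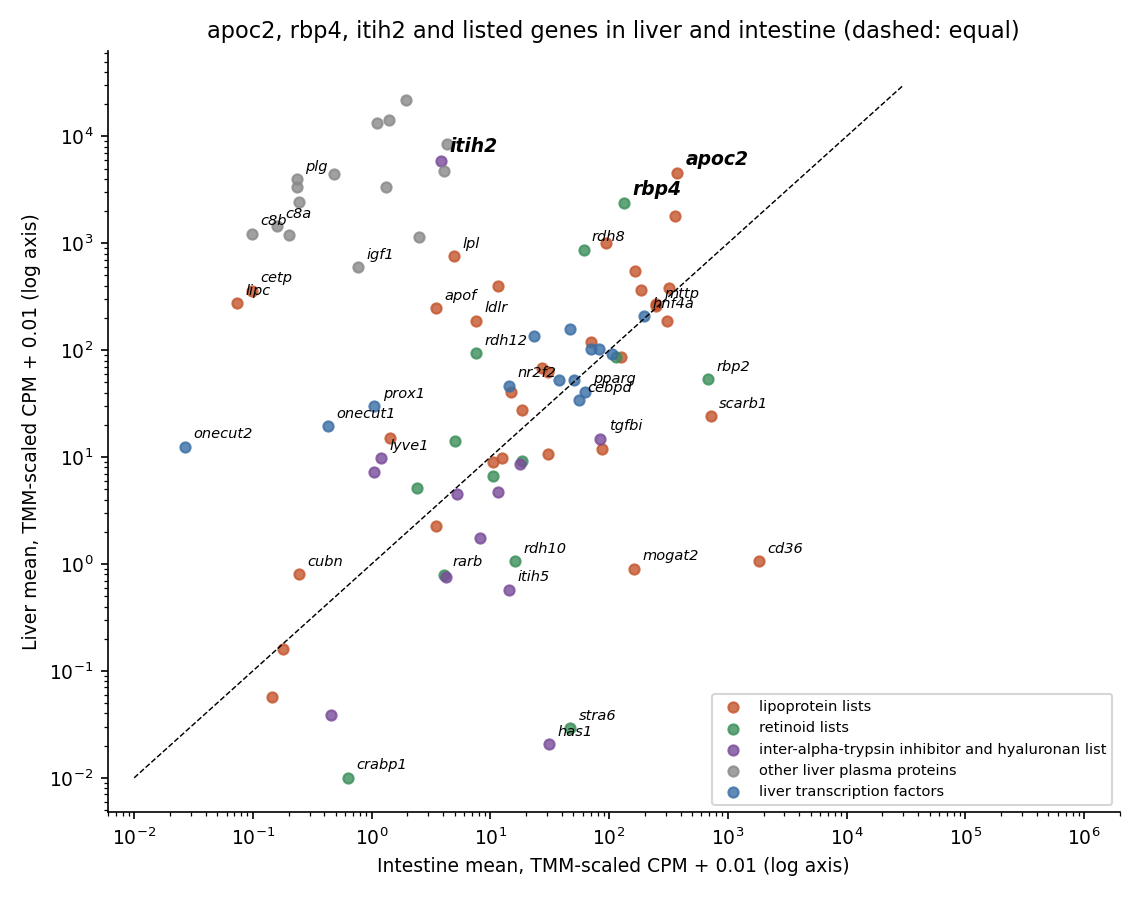
Mean level in liver (vertical axis) against mean level in intestine (horizontal axis) for apoc2, rbp4, itih2 and the tested genes of the lists reported here, in TMM-scaled CPM + 0.01 on log axes, where each point is a gene, colours mark lists and the dashed line marks equal levels. Among liver plasma proteins itih2 sits far above the line with plg and c8b, rbp4 and apoc2 sit nearer to it, and stra6, rbp2 and cd36 lie below it.

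No listed gene passed the threshold for diet in any tissue. Among those of smallest p in liver was prox1, a transcription factor, with 24.7 ± 6.30 CPM under SDY and 34.9 ± 6.54 CPM under control (SD, n = 5 each; -0.50, SE 0.19, edgeR adjusted p = 0.392). In intestine the genes of smallest p were rarb (-2.98, SE 0.80, edgeR adjusted p = 0.726) and tgfbi (-0.47, SE 0.14, edgeR adjusted p = 0.726). The SDY and control intestines did not overlap for tgfbi, at 59.7 to 83.2 CPM under SDY and 85.9 to 109 CPM under control, as for 0.840% of the genes tested there. In head kidney they were nr2f2 (0.44, SE 0.12, edgeR adjusted p = 0.404) and igf1 (5.52, SE 2.02, edgeR adjusted p = 0.404). The igf1 values were 0.338, 0.113, 18.6, 7.83 and 0.477 CPM under SDY, against 0.0467, 0.211 and 0.0907 CPM under control. The high ones were SDY replicates 3 and 4, whose 7 interrenal and chromaffin markers, of 13 listed, summed to 1570 and 667 CPM, against 13.1 to 29.8 CPM in the other head kidneys used. The part of these cells in igf1 was not tested. The values of nr2f2 and igf1 with both omitted libraries kept were not computed.

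Within tissues the 3 genes varied by different amounts. Over the 10 intestines apoc2 had a coefficient of variation of 76.9%, higher than in 93.2% of 16801 genes and against a median of 25.8%. The highest intestine was 23.3 times the lowest. In liver the coefficients were 28.7% for apoc2, 19.5% for rbp4 and 24.3% for itih2, against a median of 24.7%. The 2 intestines lowest in apoc2, SDY replicate 4 and control replicate 4 at 51.0 and 36.2 CPM, also had the lowest enterocyte marker sums, 5080 and 2490 CPM. The enterocyte marker mttp was not low in these 2, at 239 and 294 CPM, against a median of 223 CPM over all intestines. Outside the marker list, stra6 was at 24.3 and 21.6 CPM in the same 2 libraries, against a median of 43.8 CPM. There rbp2 was at 115 and 243 CPM, against a median of 681 CPM. The other 8 had 182 to 844 CPM of apoc2 and enterocyte sums of 6350 to 14400 CPM. Among these 8, the highest apoc2, 844 CPM in SDY replicate 5, came with a sum of 6940 CPM. The highest sum, 14400 CPM in control replicate 1, came with 232 CPM of apoc2. The part of the enterocyte share in apoc2 was not tested.

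The genes were then compared pairwise within each tissue, giving 9 relations over libraries with p-values adjusted across them. Over the 10 livers apoc2 and itih2 varied together (Pearson r = 0.872, permutation p = 0.00114, adjusted 0.0103; Spearman rho = 0.842, permutation p = 0.00380, adjusted 0.0342). Without the 2 livers farthest from the median of apoc2, r was 0.652. On plain library totals r was 0.775 (permutation p = 0.00862, adjusted 0.0259 over the liver pairs alone). The adjustment over all 9 relations was not repeated on plain library totals, so the 2 adjusted values cannot be set beside each other. Both genes were highest in control replicate 4, the liver with the lowest scaling factor, 0.419, and the highest hepatocyte marker sum, 79100 CPM. That sum was 45900, 53100, 35800, 60100 and 58300 CPM in SDY livers and 56300, 55500, 47400, 79100 and 56200 CPM in control livers, and its part in the relation was not tested. The other liver pairs gave r = 0.551 for apoc2 with rbp4 and 0.217 for rbp4 with itih2 (permutation, adjusted p = 0.241 and 0.714; rho = 0.624 and 0.261, adjusted 0.184 and 0.604).

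In intestine r was 0.541 for apoc2 with rbp4, 0.326 for apoc2 with itih2 and 0.535 for rbp4 with itih2 (permutation, adjusted p = 0.241, 0.543 and 0.241). The rho values were 0.564, 0.285 and 0.745 (permutation, adjusted 0.218, 0.604 and 0.0815). Over the 8 head kidneys r was -0.01 for apoc2 with rbp4, 0.552 for apoc2 with itih2 and 0.0978 for rbp4 with itih2 (exact permutation, adjusted p = 0.993, 0.281 and 0.907). None of these 6 relations passed the threshold.

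The named genes most like each of the 3 over all 28 libraries mostly repeat the order of tissues, which these points share. For apoc2 they were acaa1 (r = 0.989 on log2 CPM), tmem254 (0.987) and ugt1a1 (0.985), of which acaa1, a gene of peroxisomal fatty acid breakdown, had 130 CPM in liver, 64.6 CPM in intestine and 17.4 CPM in head kidney. For rbp4 the closest was pde6c (0.991), which shares its reads, followed by fahd1 and hhip (0.985 each). For itih2 they were masp2, shbg and serpinf2 (0.998 each), which encode plasma proteins of complement, steroid transport and plasmin inhibition and which had 122, 1010 and 1190 CPM in liver and under 1 CPM in the mean of intestine.

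With the tissue order removed, by taking deviations from the diet means over the 10 livers, itih2 was most like 3 genes of sterol synthesis. These were mvd (r = 0.986), lss (0.980) and sqle (0.975), and on plain library totals the values were 0.913, 0.848 and 0.870. The levels of all 3 followed the same livers as itih2, at 28.2, 56.1, 23.4, 173 and 67.5 CPM for mvd under SDY and 97.8, 12.8, 13.2, 254 and 71.3 CPM under control. Control replicate 4 was highest and control replicates 2 and 3 lowest for mvd, which ran from 12.8 to 254 CPM while itih2 ran from 4258 to 8949 CPM. Over livers lss ran from 22.3 to 807 CPM and sqle from 27.7 to 957 CPM.

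Over the same livers apoc2 was most like misp (r = 0.970), tyw5 (0.944) and ahcy (0.922), and rbp4 was most like pde6c (1.0, shared reads), smoc1 (0.960) and tpbg (0.927). Over the 10 intestines apoc2 was most like nfe2l2 (0.965), a transcription factor of the oxidative stress response, tlcd3b (0.957) and lrig1 (0.956). For rbp4 in intestine they were pde6c (0.973), rnf150 (0.942) and ube2j2 (0.940, but 0.447 on plain library totals). For itih2 in intestine they were cspg4 (0.902), nucb2 (0.872) and kmt5a (0.870). These were the highest of a great many correlations over 10 libraries each, so they are given as a description without a p-value.

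**Figure D5:**
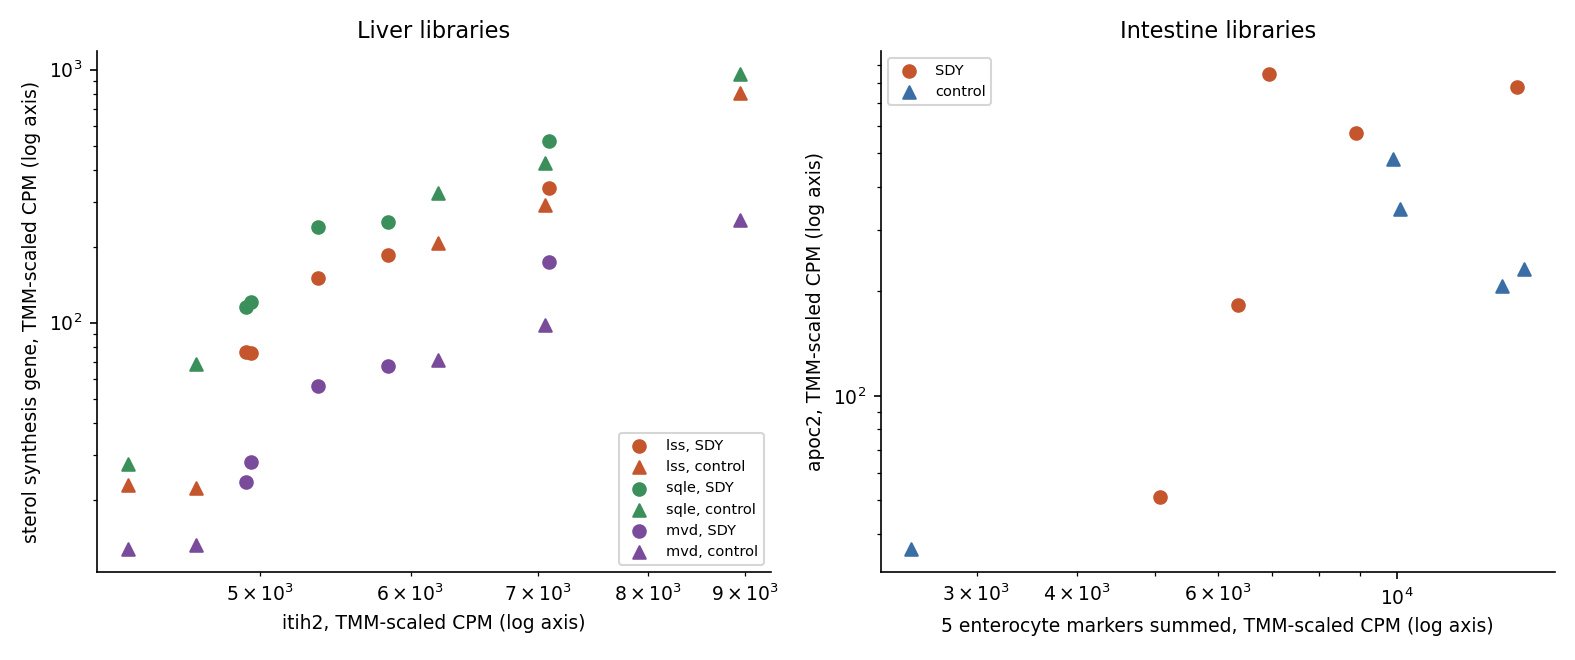
Left, mvd, lss and sqle against itih2 over the 10 livers, and right, apoc2 against the summed enterocyte markers over the 10 intestines, both in TMM-scaled CPM on log axes with each point a library (circles SDY, triangles control). The sterol synthesis genes climb with itih2 across SDY and control livers alike, and the 2 intestines with the lowest enterocyte sums have the lowest apoc2. Over the other 8 intestines, the highest apoc2, 844 CPM, has a sum of 6940 CPM.

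The neighbours of the 3 genes on the chromosome differed in tissue pattern. The gene before apoc2, LOC115567819 at a distance of 2989 bases, had 52990 ± 12060 CPM in liver, 3.61 ± 6.93 CPM in intestine and 4.13 ± 4.90 CPM in head kidney. The gene after it, LOC115567805 at 3838 bases, had 0.01 CPM in liver, 198 ± 115 CPM in intestine and 0 CPM in head kidney. On the same strand, apoc2 was thus the 1 of these 3 genes that was abundant in both liver and intestine. The files give no name for either LOC identifier. Beside rbp4, cep55 lay 1031 bases away with 9.52 ± 3.62 CPM in liver, 12.6 ± 12 CPM in intestine and 34.9 ± 4.21 CPM in head kidney.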

How the data were processed

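The values analysed are raw read counts per gene, deposited by the authors. Per the file headers, they were made with featureCounts 1.5.3 over features of type mRNA summed by gene on fSpaAur1.1, with reads over overlapping genes counted for each (-O) and no strand, paired-end or multi-mapping option. Per the submitters' processing notes, Trim Galore 0.4.4, FastQC, HISAT2 2.1.0 and DESeq2 were used. Per the labels' protocols, the kit was directional.

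Counts were tested with edgeR 4.0.16 in R 4.3.3 (filterByExpr, TMM, quasi-likelihood, Benjamini-Hochberg over all genes tested, threshold 0.05). Tissue and interaction contrasts came from 1 fit of 28 libraries with 6 group means, diet contrasts from each tissue alone. SEs and intervals came from the F statistic. The lowest chi-square per gene between replicates was 19.1, so none were duplicates. On simulated diet contrasts in liver, 100% of 4-fold and 47% of 2-fold changes were recovered, and for liver minus intestine 88% and 10%. The simulated libraries shared the mean profile of the 6 groups and the same spread for every gene, with changes placed only in genes of higher counts. These rates therefore need not hold for the real livers. For diet in liver that run covered 18450 genes, against 15010 tested in these data. Recovery at the spread and depth of apoc2, rbp4 or itih2 was not tested.

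The 3 genes and all lists were chosen with earlier results of these data known. Named genes were the 3, the listed partners, per list the 2 largest changes each way between liver and intestine, per diet contrast the 2 smallest p, and the 3 most alike by Pearson r. LOC115567819, LOC115567805, cep55, pde6c and kin were named for their position. Alternatives were DESeq2 1.42.0, RLE and plain library totals, other filters, other sample sets, a replicate block, and each library left out. Of 25722 gene identifiers 10196 were symbols, and 18022 were found in RefSeq's gene table for that assembly. Sequences were not used here, and some listed genes that the rule names are not reported here.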

Additional observations from a re-analysis of the deposited data

Results flagged for a closer look

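Of 15 groups of gene, tissue and diet with 5 libraries, 2 held a library whose gap to the next exceeded the limit set for 5 values, where chance gives about 1 in 20. For apoc2 in head kidney it was SDY replicate 1 at 1.24 CPM, with a gap of 0.775 of the group's range. For rbp4 in head kidney it was SDY replicate 5 at 50.3 CPM, with a gap of 0.769 of the range. In SDY replicate 1, LOC115567819, abundant in livers, lay above the 0.263 to 5.70 CPM of the other head kidneys used. There cpb1 was at 8.57 CPM, against 0.0907 to 0.934 CPM in those others. The hepatocyte marker sum of SDY replicate 1 was 36.8 CPM, below the 43.9 and 43.8 CPM of SDY replicates 5 and 2. The part of liver RNA in the apoc2 value of SDY replicate 1 was not tested.

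Head kidney control replicate 3, which no comparison used, held apoc2, rbp4 and itih2 at 1760, 603 and 1870 CPM of its total. The highest values per library total in the 8 head kidneys used were 1.93 CPM for apoc2, 75.7 CPM for rbp4 and 8.81 CPM for itih2.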

How the results depend on the processing

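For apoc2, rbp4 and itih2 between tissues, 231 of 234 alternatives kept direction and side of the threshold, and the other 3, for itih2 in intestine against head kidney, are given above. Liver over intestine ran from 2.49 to 3.85 for apoc2, 2.99 to 4.27 for rbp4 and 9.40 to 10.74 for itih2. For diet, 352 of 381 kept both, 28 changed sign, 3 of them past the threshold, and 1 passed with the same sign, all 4 with all 30 libraries kept. DESeq2 called 103 genes for diet in liver, 55 in intestine, 248 in head kidney, 21 for liver minus intestine, 41 for liver minus head kidney and 49 for head kidney minus intestine, against 0, 0, 1, 2, 2 and 1 with edgeR. Diet in liver gave 1 on library totals and 29 in a fit of all 6 groups, and liver minus head kidney gave 1 on totals. Head kidney gave 0 with a filter of 10 counts in 5 libraries and 0 with all its libraries kept. With all 30 libraries kept, the 3 interactions gave 4, 476 and 208, and with 20 libraries liver minus intestine gave 0. Same-numbered libraries were not paired by the labels, and in no comparison were all correlations of deviations over 0.1 (highest 0.444). With the replicate as a block, diet in head kidney and the 3 interactions gave 0 calls each. Leaving out 1 library gave 0 to 17 calls for diet in liver (17 without SDY replicate 3), 0 to 3 in intestine and 1 to 2 in head kidney, and 0 to 8, 1 to 4 and 0 to 2 for the interactions (8 and 4 without liver SDY replicate 3). The changes of sign with 1 library left out ran from -0.07 to 0.18 for rbp4 and -0.26 to 0.03 for itih2 in liver, and from -0.85 to 0.09 for apoc2 and -0.36 to 0.58 for rbp4 in head kidney. For liver minus head kidney they ran from -0.39 to 0.98 for apoc2, -0.54 to 0.43 for rbp4 and -0.13 to 0.14 for itih2. There apoc2 was 0.01 with DESeq2, 0.01 with RLE and 0.17 with the replicate block, and with all 30 kept it was 9.24, rbp4 2.73 and itih2 6.04 (edgeR adjusted p = 0.0212, 0.209 and 0.0221). Head kidney minus intestine then gave -10.45 for apoc2, -2.09 for rbp4 and -5.78 for itih2 (edgeR adjusted p = 0.0327, 0.443 and 0.0459), and rbp4 in head kidney gave -2.77. The cause was not tested. Depth limits apoc2 in head kidney, at 1 to 33 counts, and itih2 outside liver, at 55 to 151.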
